A study of Mus musculus with 8 samples.

Results

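The genes described here encode heat shock proteins, J proteins and the cytosolic chaperonin, the machinery that folds proteins. They were taken by name, as every gene whose single platform symbol begins with Hsp, Dnaj or Cct followed by a digit. This gave 82 of the 18193 genes on the array, read by 202 probe sets. Where a gene had several probe sets, as 53 did, the brightest on average stood for it. The RNA came from mouse oocytes that had finished growing and kept an intact germinal vesicle, the large nucleus seen before meiosis resumes. The oocytes came from 4 wild-type and 4 Dicer knockout females of the 129/C57BL6 background, all primed with eCG, a hormone that drives follicle growth. Each array holds 20 pooled oocytes of 1 mouse, freed of cumulus cells by pipetting, after 2 rounds of RNA amplification. The labels give no age, do not say which part of the Dicer gene was removed or in which cells, and name no Cre line.

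Proteins of the Hsp70 family bind unfolded segments of other proteins and release them on nucleotide exchange. J proteins, named Dnaj in the mouse, bring clients to Hsp70 and start its ATP hydrolysis, and Hsp90 and the ring-shaped chaperonin CCT take over folding of selected clients such as kinases, receptors, actin and tubulin. Each compartment has its own set. The cytosol answers misfolding through heat shock factors, while the endoplasmic reticulum (ER), where secreted proteins such as those of the zona pellucida fold, answers through the unfolded protein response. An oocyte relies on stored transcripts while its genome is silent, and Dicer makes the small RNAs that could act on such transcripts.

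The promoters of 3 ER lumen chaperone genes that were lower in knockout oocytes share a motif and are shown with that of Dnajb9, the lumenal gene that was higher. The motif was found in 0 of the 5 members that rose and have a promoter. It was also not found for Dnajb12 and Dnajc16, which fell, or for Dnajb11, Dnajc1 and Dnajc10, which did not pass. Whether the motif goes with a direction was not tested. The promoters shown are the 250 bases before the start site in the RefSeq promoter table of build GRCm38.p6, written 5′ to 3′ on the gene's strand. They are those of Hspa5 (chr2:34771840-34772089, + strand), Hsp90b1 (chr10:86705445-86705694, - strand), Dnajc3 (chr14:118937682-118937931, + strand) and Dnajb9 (chr12:44210069-44210318, - strand). Capitals mark the ER stress element, searched on both strands as CCAAT and then CCACG with 9 bases between.
Hspa5: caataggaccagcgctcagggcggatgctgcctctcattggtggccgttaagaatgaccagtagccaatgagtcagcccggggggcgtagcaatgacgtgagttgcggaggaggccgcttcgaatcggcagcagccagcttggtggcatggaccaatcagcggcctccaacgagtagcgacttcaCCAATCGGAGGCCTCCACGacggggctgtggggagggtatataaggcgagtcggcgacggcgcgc
Hsp90b1: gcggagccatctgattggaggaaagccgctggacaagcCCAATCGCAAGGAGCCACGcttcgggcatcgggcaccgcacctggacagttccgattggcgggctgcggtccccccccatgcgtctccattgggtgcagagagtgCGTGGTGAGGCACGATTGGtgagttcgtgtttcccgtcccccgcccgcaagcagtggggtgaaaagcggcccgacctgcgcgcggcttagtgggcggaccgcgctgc
Dnajc3: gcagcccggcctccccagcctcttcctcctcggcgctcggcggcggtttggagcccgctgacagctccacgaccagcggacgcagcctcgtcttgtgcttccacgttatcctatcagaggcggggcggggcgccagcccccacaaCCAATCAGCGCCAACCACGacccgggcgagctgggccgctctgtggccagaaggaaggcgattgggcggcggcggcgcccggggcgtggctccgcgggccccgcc
Dnajb9: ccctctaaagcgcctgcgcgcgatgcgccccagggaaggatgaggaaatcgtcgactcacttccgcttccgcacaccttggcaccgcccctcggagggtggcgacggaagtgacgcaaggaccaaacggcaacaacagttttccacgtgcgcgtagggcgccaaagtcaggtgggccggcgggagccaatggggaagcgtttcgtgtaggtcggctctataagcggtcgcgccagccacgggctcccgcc

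The element lay 65 to 47 bases before the start in Hspa5, 105 to 87 bases before it in Dnajc3, and at 212 to 194 and 107 to 89 bases before it in Hsp90b1, the nearer copy on the opposite strand. It was found in 3 of the 68 members with a promoter in the table (4.41%), all in the ER lumen class, and in 35 of all 27025 genes there (0.13%). The heat shock element, taken as 3 alternating units of GAA and TTC with 2 bases between units, was found in Hspd1, Hspe1 and Dnajb6 (again 4.41% of the members with a promoter against 0.514% of all genes). Hspd1 and Hspe1 form a divergent pair on chromosome 1 and share the same stretch. The Atf4-type motif TGATGNAA was found in Hspa14 alone (1.47% against 3.91%). A match describes letters in this window and is not a measured binding site, and promoters without a match, such as that of the heat-inducible Hspa1a, may hold looser forms.

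The libraries were close to each other. Array medians lay between 6.35 and 6.43 on the log2 scale, and arrays correlated at r = 0.9915 to 0.9947 within a group and at 0.9797 to 0.9865 between groups (over probe sets, so these describe the arrays and test nothing). The 14 oocyte markers had means from 8.73 (Figla) to 14.60 (Gdf9), with Zp1, Zp2, Zp3 and Gdf9 at 13.88 to 14.60. Of 14 oocyte markers 5 fell (35.7%), namely Mos, Dppa3, Ooep, Kit and Figla, and 0 rose. The other 9, namely Zp1, Zp2, Zp3, Gdf9, Bmp15, Nlrp5, Oosp1, Padi6 and Nobox, did not pass. Of 22 markers of cumulus and granulosa cells, the somatic neighbours of the oocyte, 10 fell (45.5%) and 0 rose. In each of the 2 lists 1 gene was higher at an unadjusted p under 0.05 (limma). The summed linear signal of the somatic markers ran from 11139 to 17141 on wild-type arrays and from 7502 to 9589 on knockout arrays. Means of these 22 markers over the 8 arrays ran from 3.36 to 11.03 (Gja1), with Nr5a2 at 10.45 and Inha at 10.41. Among them the markers of cumulus expansion were dim (Has2 5.46, Ptx3 5.41 and Tnfaip6 3.36). Of 15 theca, stroma, vessel and blood markers, 1 rose and 2 fell (6.67% and 13.3%). Among all genes 8.18% were higher and 12.8% lower. Whether these signals came from somatic cells or from the oocyte itself was not tested. The number of cells and the RNA per cell cannot be told apart in pooled samples.

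Among the 82 genes, 6 were higher and 12 lower in knockout oocytes (limma, adjusted p under 0.05 over all probe sets), together 22.0%. The background was 21.0% of all genes, 8.18% higher and 12.8% lower, so the family as a whole was called about as often as any gene. Its median log2 difference was -0.01, beside 0.00 for all genes. The wild-type and knockout arrays did not overlap for 33 members (40.2%), against 26.2% of all genes. Differences of at least 2-fold among those that passed were found in 3 genes, the ER J protein Dnajb9 and the inducible Hsp70 Hspa1a, both higher, and the J protein Dnajc5b, lower. With cyclic loess scaling 10 members were higher and 7 lower, 58.8% higher in place of 33.3%, and with arrays centred on their medians 4 were higher and 17 lower (19.0%). Without wild-type array 1 the counts were 6 and 6, and the lower count was also 6 without wild-type array 2 or knockout array 3. The lower count was 7 without any of knockout arrays 2 and 4 or wild-type array 4. The higher count was 3 without wild-type array 3, wild-type array 4 or knockout array 1. Among cytosolic genes, 1 was higher without any of the same 3 arrays, and 1 to 3 were lower without any one array.

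**Figure D1:**
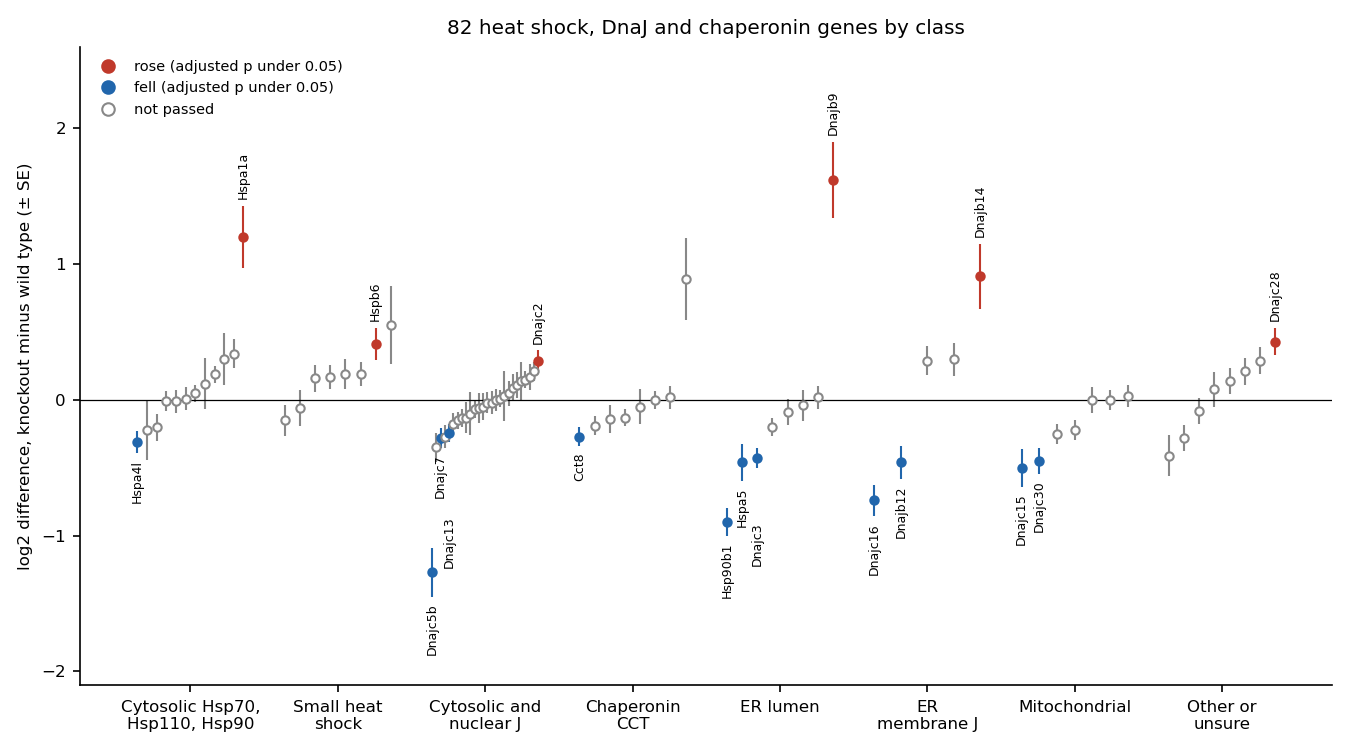
Log2 difference of knockout minus wild type for each of the 82 genes (points; bars are the moderated SE, n = 4 and 4 arrays), grouped by the compartment or family of the protein and sorted within each group. Filled points passed an adjusted p of 0.05. ER lumen genes run from Hsp90b1 at -0.90 to Dnajb9 at 1.62 and cytosolic genes from Dnajc5b at -1.27 to Hspa1a at 1.20. Of the 54 cytosolic genes 37 lie within 0.20 of 0 (the share of all genes was not counted).

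Compartments differed in how often their genes were called. Of 8 ER lumen genes 3 fell and 1 rose, and of 5 J proteins anchored in the ER membrane 2 fell and 1 rose, while of 54 cytosolic and nuclear genes 5 fell and 3 rose (14.8%, beside 21.0% of all genes). The medians were -0.15, 0.29 and -0.01 on the log2 scale. Whether the classes differ was not tested, and 8 and 5 genes are few.

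The most changed chaperone of the ER lumen that fell was Hsp90b1, or GRP94, the Hsp90 of the ER. It read 11.09, 11.09, 10.88 and 10.80 on the wild-type arrays and 10.06, 9.89, 10.05 and 10.25 on the knockout arrays, so every knockout value lay below every wild-type value. The log2 difference was -0.90 ± 0.101 (SE), which is 1.86-fold lower (limma, adjusted p = 0.000358). A second probe set fell by 0.84 on the log2 scale (adjusted p = 0.00653), and the call held without each array in turn.

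Hspa5, or BiP, the Hsp70 of the ER, read 13.16, 13.10, 12.84 and 12.85 in wild type, compared with 12.68, 12.31, 12.31 and 12.80 in knockout. The groups were separated by a narrow gap, with knockout arrays 1 and 4 close to wild-type arrays 3 and 4. The log2 difference was -0.46 ± 0.134 and just passed (limma, adjusted p = 0.0446). The call ended without any single array other than knockout array 4, at adjusted p up to 0.116. It also ended with quantile scaling, with cyclic loess scaling and with array weights. Of its 3 probe sets another fell by 0.66 (adjusted p = 0.0205), and the remaining one read a difference of -0.08.

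Dnajc3, or p58IPK, a J partner of BiP in the lumen, gave 11.46, 11.39, 11.21 and 11.32 in wild type, compared with 10.95, 10.90, 10.95 and 10.87 in knockout, without overlap. It fell by 0.43 ± 0.0746 on the log2 scale (limma, adjusted p = 0.00418). All 5 of its probe sets fell, the other 4 by 0.63 to 1.02, and the call held without each array.

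Dnajb9, or ERdj4, a J protein that also binds BiP and is known as a target of the Ire1 and Xbp1 branch of the unfolded protein response, moved the other way. It read 9.82, 9.54, 9.13 and 8.64 in wild type, compared with 11.27, 10.41, 10.60 and 11.31 in knockout. The wild-type arrays were spread over more than 1 log2 unit, yet all lay below the lowest knockout array. The log2 difference was 1.62 ± 0.279, or 3.06-fold (limma, adjusted p = 0.00382), and ranged from 1.40 to 1.79 when single arrays were left out. It has 1 probe set.

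The other 4 lumenal genes did not pass. Dnajc10, or ERdj5, which reduces disulfide bonds, read 12.46 ± 0.0747 (SD, n = 4) and 12.26 ± 0.0269 (n = 4; log2 difference -0.20, adjusted p = 0.0719), without overlap between groups, and 1 of its 3 probe sets fell by 0.37 (adjusted p = 0.0318). Dnajb11, or ERdj3, a J protein that binds unfolded clients, read 12.13 ± 0.0936 and 12.16 ± 0.121. Dnajc1 differed by -0.09 ± 0.0956 (SE) and the Hsp70 relative Hspa13 by -0.04 ± 0.114, both with overlapping groups. The cumulus and granulosa markers were lower on the same arrays (summed signal at most 9589 in knockout, at least 11139 in wild type), and their part in the lower ER chaperone signals was not tested.

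**Figure D2:**
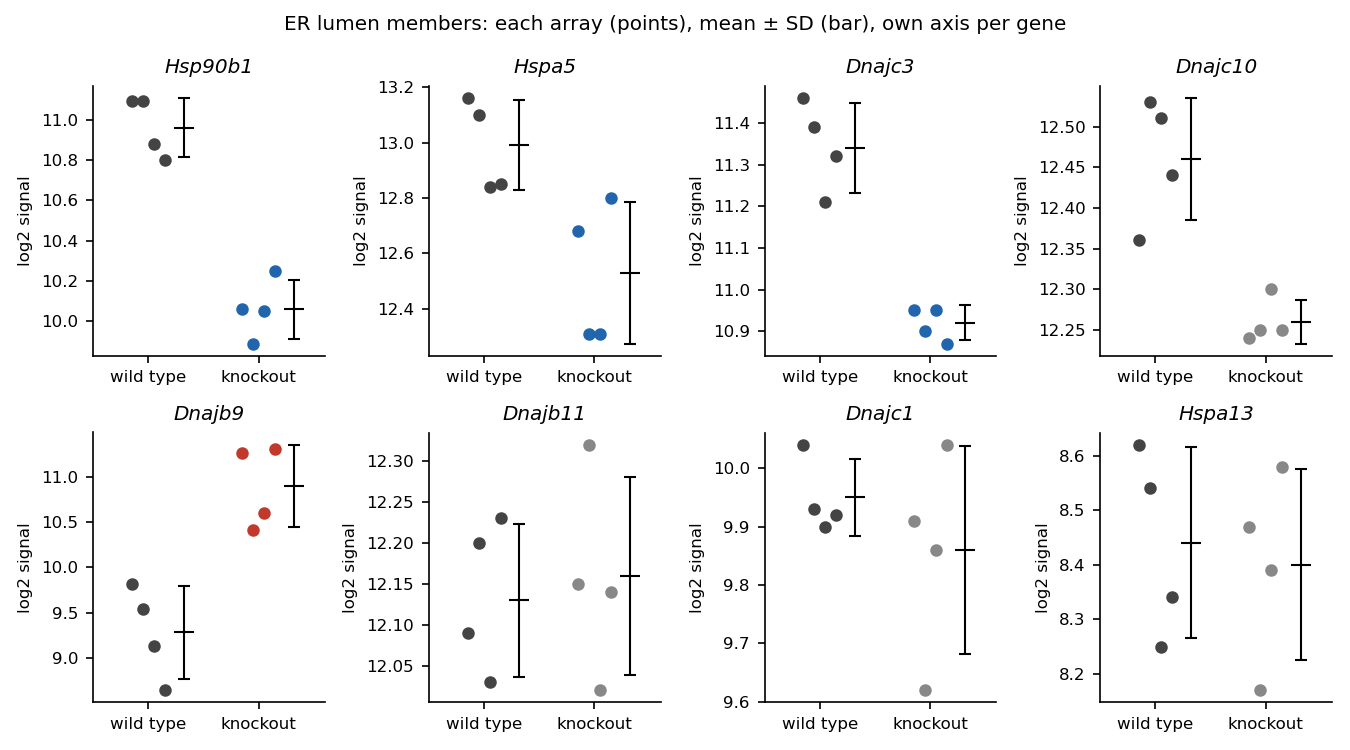
Log2 signal of the 8 ER lumen genes on each array (points) with the group mean and SD (bar), with a separate axis for each gene that does not start at 0. Hsp90b1, Hspa5 and Dnajc3 are lower on all 4 knockout arrays, Dnajb9 is higher on all 4, and Dnajb11, Dnajc1 and Hspa13 overlap.

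Among J proteins of the ER membrane, Dnajb12 and Dnajb14 face the cytosol with their J domain and help to clear misfolded membrane proteins. Dnajc16 read 8.59, 8.18, 8.07 and 8.48 in wild type, compared with 7.62, 7.68, 7.50 and 7.55 in knockout, a fall of 0.74 ± 0.117 (limma, adjusted p = 0.00236), while its second probe set differed by 0.23 (adjusted p = 0.437). Dnajb12 fell by 0.46 (adjusted p = 0.029) in 1 of 2 probe sets, and the call ended without any of 5 single arrays, at adjusted p up to 0.0753. Its relative Dnajb14 rose in both probe sets. The representative one read 7.31, 6.89, 6.87 and 6.30 in wild type, compared with 8.27, 7.40, 7.91 and 7.45 in knockout, 1.88-fold higher (adjusted p = 0.0289). It lost the call without any of 5 single arrays, at adjusted p up to 0.0789. The other read 5.53 ± 0.462 (SD, n = 4) and 8.03 ± 0.27 (n = 4), 5.63-fold higher (adjusted p = 9.87e-05). Dnajc14 and Dnajc18 did not pass (log2 differences 0.29 and 0.30), although 1 of 3 Dnajc14 probe sets rose by 0.35 (adjusted p = 0.0396).

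In the cytosol, the brightest Hsp70 and Hsp90 genes had overlapping groups and did not pass. Hspa8, the Hsc70 of resting cells, read 14.01 ± 0.0517 (SD, n = 4) and 14.07 ± 0.0337 (n = 4), a log2 difference of 0.05 ± 0.0637 (SE). For Hsp90aa1, the heat-inducible Hsp90 of the cytosol, the means were 13.83 and 13.83, and for the Hsp110 gene Hspa4 the difference was -0.01. Dnajb1, the main J partner of heat-induced Hsp70, differed by 0.15 (adjusted p = 0.173) and Dnaja1 by -0.15 (adjusted p = 0.144), both without overlap between groups, and Dnaja2 by -0.02. Hspa2, the Hsp70 of male germ cells, differed by -0.20 (adjusted p = 0.22). Of the 54 cytosolic and nuclear genes, 37 differed by less than 0.20 on the log2 scale in either direction. The share of all genes within that range was not counted, and 8 of the 54 were dim, with a mean under 6. Hsp90ab1 was not analysed here.

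The cytosolic gene with the largest rise was Hspa1a, a heat-inducible Hsp70. Its single probe set read 9.69, 9.45, 9.84 and 8.73 in wild type, compared with 10.85, 10.63, 10.24 and 10.79 in knockout, without overlap and with wild-type array 4 lowest. The log2 difference was 1.20 ± 0.231, or 2.29-fold (limma, adjusted p = 0.00685), and 0.97 to 1.34 when single arrays were left out. Its neighbour Hspa1b, on chromosome 17 as well, encodes nearly the same protein. Its 3 probe sets did not pass, and the representative one read 11.42, 11.39, 11.45 and 10.52 in wild type, compared with 11.50, 11.43, 11.43 and 11.61 in knockout (log2 difference 0.30, adjusted p = 0.359). Wild-type array 4 was the lowest in both genes. The promoter windows of the pair share 296 of 300 bases, which does not describe the transcripts that the probe sets read. Transcript sequences were not compared here. Signal of close copies may be split between their probe sets, so which copy gave the Hspa1a signal is uncertain. Hsph1, an Hsp110 that exchanges nucleotide on Hsp70, read 13.21, 12.94, 12.88 and 12.87 in wild type, compared with 13.42, 13.09, 13.38 and 13.37 in knockout and missed the threshold (log2 difference 0.34, adjusted p = 0.0589). It passed with 7 of the 18 alternatives.

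Hspa4l, an Hsp110 relative best known from the testis, gave opposite answers within 1 gene. The representative probe set fell from 10.72 ± 0.13 (SD, n = 4) to 10.41 ± 0.0462 (n = 4), by 0.31 on the log2 scale (limma, adjusted p = 0.0271), and lost the call without any of 6 single arrays, at adjusted p up to 0.0743. A dimmer one rose from 6.74 ± 0.547 to 8.85 ± 0.39, 4.33-fold (adjusted p = 0.000786), and another from 7.56 ± 0.23 to 8.98 ± 0.305, 2.69-fold (adjusted p = 0.000386). The remaining 2 of its 5 probe sets did not pass, at -0.13 and -0.33. Which transcript each reads is not given in the sources used here.

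Small heat shock proteins hold unfolded clients without using ATP. Of 8, the muscle-type Hspb6 rose from 8.84 ± 0.114 (SD, n = 4) to 9.25 ± 0.234 (n = 4), 1.33-fold (limma, adjusted p = 0.0442). The gap between its groups was narrow, with knockout array 4 and wild-type array 4 both at 8.96, and the call ended without any of 7 single arrays, at adjusted p up to 0.114. Hspb1, or Hsp27, read 8.91, 8.80, 8.65 and 8.16 in wild type, compared with 8.84, 8.89, 8.88 and 10.12 in knockout (adjusted p = 0.245), so that its mean difference of 0.55 rests on knockout array 4. Hspb2 (0.19) and Hspb3 (-0.15) did not pass. Hspb11, now known as a part of ciliary transport, read 10.73 ± 0.222 and 10.67 ± 0.19. Both Hspb2 and Hspb9 were dim, at means of 5.30 and 4.65.

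By their representative probe sets, 3 of 26 cytosolic and nuclear J proteins fell and 1 rose (11.5% and 3.85%, beside 12.8% and 8.18% of all genes), and the one that rose, Dnajc2, has other probe sets that fell. Dnajc5b, a relative of the cysteine string protein of synaptic vesicles, fell the most of all 82 genes. It read 8.87, 9.14, 9.05 and 9.42 in wild type, compared with 7.60, 8.37, 7.80 and 7.63 in knockout, with knockout array 2 the highest of its group and still below every wild-type array. The log2 difference was -1.27 ± 0.179, which is 2.41-fold lower (limma, adjusted p = 0.00126), and lay between -1.44 and -1.17 without single arrays. Its paralogue Dnajc5 read a difference of -0.35 (adjusted p = 0.0516), with 1 of 5 probe sets past the threshold (-0.30, adjusted p = 0.0351).

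Dnajc7, which binds both Hsp70 and Hsp90, fell from 12.25 ± 0.0345 (SD, n = 4) to 11.98 ± 0.0935 (n = 4), by 0.28 (limma, adjusted p = 0.0252). Dnajc13, an endosomal J protein, fell from 11.72 ± 0.0384 to 11.49 ± 0.0674, by 0.24 (adjusted p = 0.0393). Both sets of arrays were separate, but the call of Dnajc7 ended without any of 5 single arrays, at adjusted p up to 0.0712, and that of Dnajc13 without any one array, at adjusted p up to 0.0958. Dnajc2, a J protein of the ribosome, rose from 12.14 ± 0.0503 to 12.43 ± 0.109 in its representative probe set (log2 difference 0.29, adjusted p = 0.0282). Its call ended without any of 5 single arrays, at adjusted p up to 0.0756, and 2 of its other probe sets fell, by 0.53 (adjusted p = 0.00125) and 0.43 (adjusted p = 0.0395). No direction can therefore be given for Dnajc2. Dnajc8, a nuclear J protein, read 14.05 ± 0.0227 and 14.06 ± 0.0248. Dnajb6, a suppressor of protein aggregation, differed by -0.07 in its representative probe set, while 1 of its 4 fell by 0.75 (adjusted p = 0.00243). Dnajb5 read 0.21 (adjusted p = 0.0678) without overlap between groups.

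**Figure D3:**
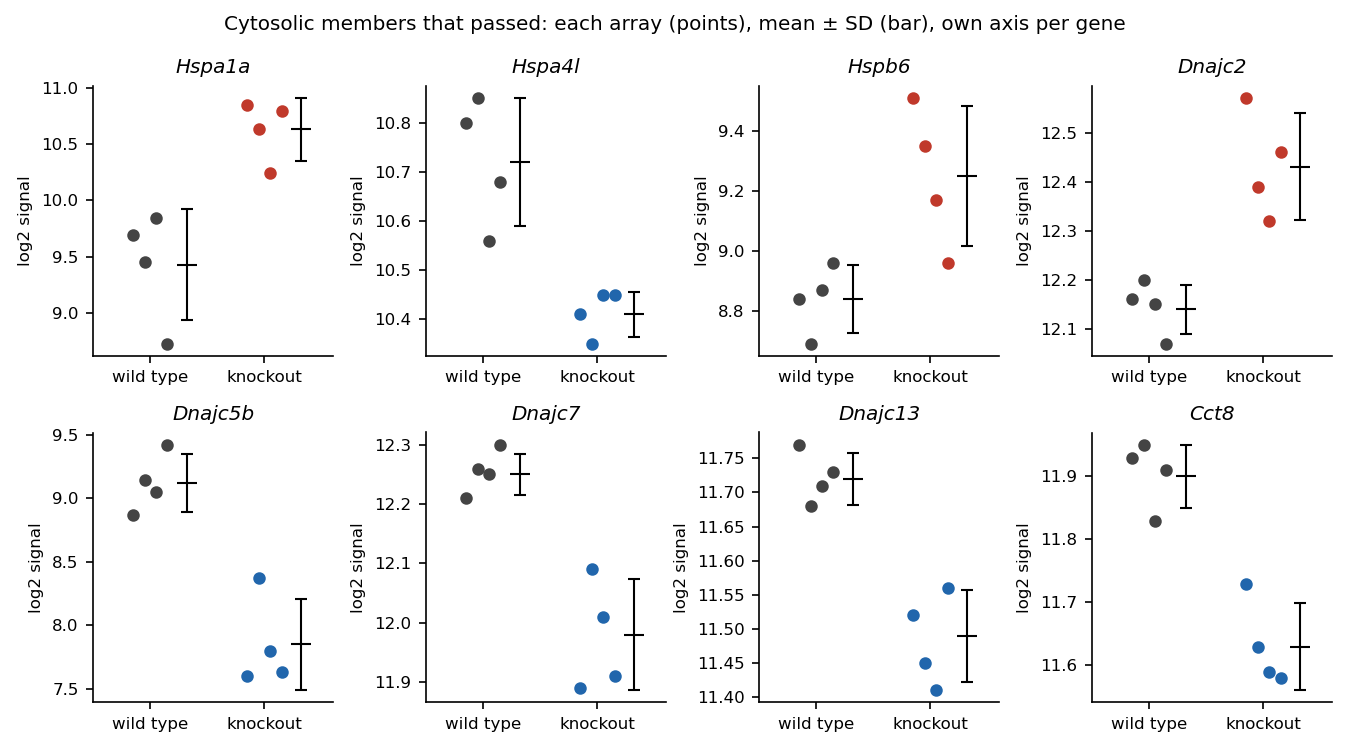
Log2 signal of the 8 cytosolic and nuclear genes that passed, on each array (points) with the group mean and SD (bar), with a separate axis for each gene that does not start at 0. In these representative probe sets Hspa1a, Hspb6 and Dnajc2 are higher in knockout and the other 5 lower (other probe sets of Dnajc2 and Hspa4l passed in the opposite direction), with Hspa1a (1.20) and Dnajc5b (-1.27) far larger in log2 difference than the rest.

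CCT is a ring of 8 kinds of subunit that folds actin and tubulin. Of its 8 measured genes, Cct8, the theta subunit, fell from 11.90 ± 0.0503 (SD, n = 4) to 11.63 ± 0.0692 (n = 4), by 0.27 (limma, adjusted p = 0.0237), and lost the call without any of 6 single arrays, at adjusted p up to 0.0672. Cct5 (-0.19, adjusted p = 0.106) and Cct2 (-0.13, adjusted p = 0.227) had separate groups of arrays and did not pass. Cct3 differed by -0.00 ± 0.0687 (SE), Cct7 by -0.05 ± 0.13 and Cct4 by -0.14 ± 0.101, with 2 dimmer of 7 Cct4 probe sets lower by 0.98 (adjusted p = 0.000414) and 0.60 (adjusted p = 0.0107).

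Cct6a, the zeta subunit, had the highest difference among the subunits and did not pass. It read 9.24, 8.12, 8.0 and 8.31 in wild type, compared with 9.68, 8.70, 9.11 and 9.75 in knockout, with wild-type array 1 above 2 of the knockout arrays. The log2 difference was 0.89 ± 0.304 (limma, adjusted p = 0.0787), and it passed without wild-type array 1 (1.17, adjusted p = 0.0135) or knockout array 2 (1.10, adjusted p = 0.0391). Without each of the other 6 arrays it did not pass (adjusted p = 0.117 to 0.179), and its second probe set read a difference of 0.52 (adjusted p = 0.21). The testis form Cct6b was dim, at 4.83 ± 0.13 and 4.84 ± 0.0919. Tcp1, the alpha subunit, whose symbol is outside the naming rule, differed by -0.11.

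Of 7 mitochondrial chaperones 2 fell and 0 rose (limma; 28.6% lower, beside 12.8% of all genes lower and 8.18% higher). At an unadjusted p under 0.05, 4 were lower and 0 higher, and 20.1% and 14.7% of all genes were. Dnajc15, a J protein of the import motor, fell from 9.67 ± 0.0896 (SD, n = 4) to 9.17 ± 0.302 (n = 4), by 0.50 (limma, adjusted p = 0.037), and lost the call without any of 7 single arrays, at adjusted p up to 0.0876. Dnajc30 read 10.75, 10.67, 10.54 and 10.60 in wild type, compared with 10.36, 9.99, 10.16 and 10.25 in knockout, a fall of 0.45 ± 0.0931 (adjusted p = 0.00984) that held without each array. Hspa9, the Hsp70 of the mitochondrial matrix, missed the threshold in its representative probe set (-0.25, adjusted p = 0.0508), and 2 of its 5 probe sets fell, by 0.50 (adjusted p = 0.00312) and 0.58 (adjusted p = 0.0117). Hspd1 and Hspe1, the Hsp60 ring and its lid, differed by -0.00 ± 0.0717 and 0.00 ± 0.0974, with overlapping groups for both genes of the divergent pair. Dnaja3 (0.03) did not pass, and neither did Dnajc11 (-0.22, adjusted p = 0.074), of which 1 dimmer probe set rose 2.38-fold (adjusted p = 2.89e-05) and another fell by 0.35 (adjusted p = 0.0493).

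The remaining genes, of other or uncertain compartment, held 1 that passed. Dnajc28 rose from 6.70 ± 0.174 (SD, n = 4) to 7.14 ± 0.11 (n = 4), 1.35-fold (limma, adjusted p = 0.0172), while its second probe set differed by 0.08. Hspg2, which shares the prefix but encodes perlecan, a proteoglycan of basement membranes, read 9.45 ± 0.118 and 9.66 ± 0.16 (adjusted p = 0.199). Hspbap1 (-0.41, adjusted p = 0.101), Dnajc4 (-0.28, adjusted p = 0.0784) and Dnajc22 (0.29, adjusted p = 0.072) did not pass in their representative probe sets, and 1 other probe set each of Hspbap1 (-0.65) and Dnajc22 (0.50) did.

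Counting every probe set, 12 of 202 rose (5.94%) and 30 fell (14.9%), beside 7.53% and 10.9% of all probe sets with 1 symbol. At least 1 probe set passed in 28 of the 82 genes (34.1%, against 26.6% of all genes), although the members have 2.46 probe sets each and all genes 1.92. Of the 28 genes, 10 passed only through a probe set other than the representative one. Of 73 further probe sets of the 47 members named by rule, 16 had the opposite sign to the representative one, 11 of them without passing. In Hspa4l, Dnajc2 and Dnajc11 probe sets passed in opposite directions. By contrast, both probe sets of Hsp90b1, all 5 of Dnajc3 and both of Dnajb14 passed in the same direction.

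**Figure D4:**
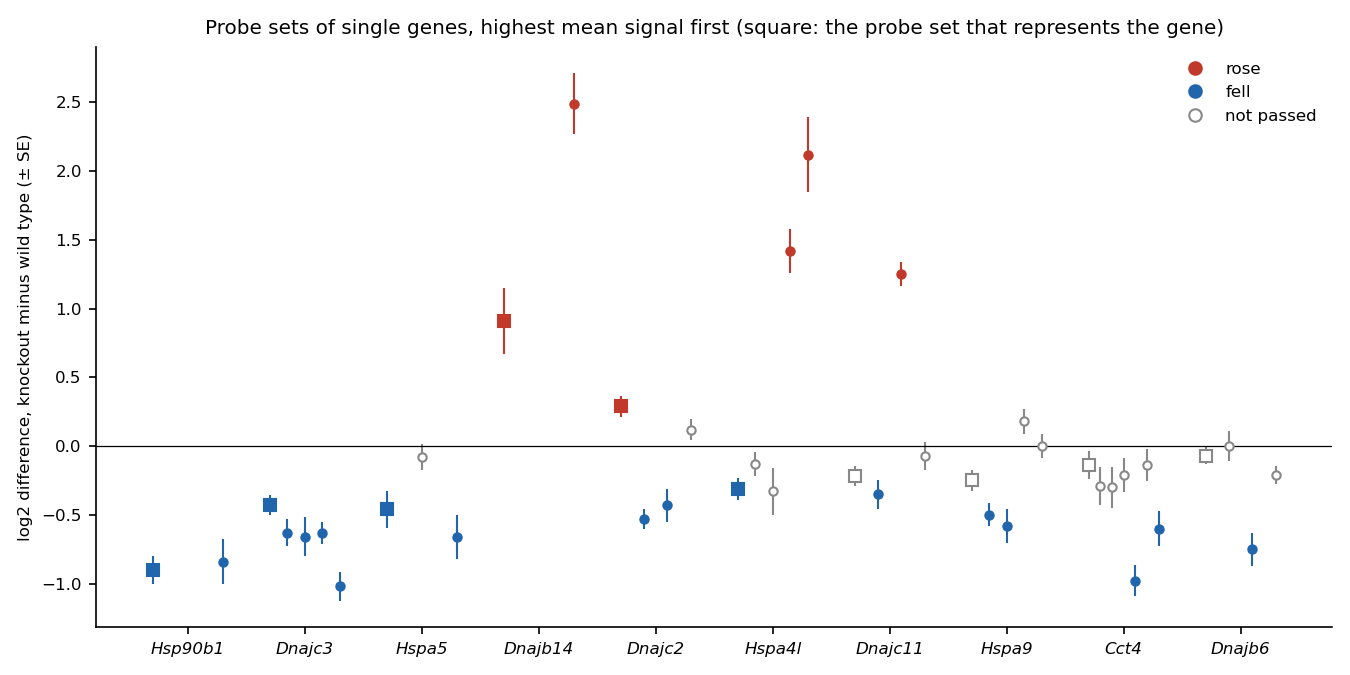
Log2 difference of knockout minus wild type (± SE) for each probe set of 10 genes, ordered within a gene from the highest mean signal to the lowest, with squares for the representative probe set and filled symbols for those that passed. Dnajc3 falls in all 5 probe sets, while Hspa4l spans -0.33 to 2.12 and Dnajc11 -0.35 to 1.25.

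Partners of these chaperones with other names were taken from lists, 74 of 78 genes measured. Of the 74, 4 rose and 16 fell (5.41% and 21.6%, beside 8.18% and 12.8% of all genes). Each partner was read by its brightest probe set. The partners' other probe sets, and their calls without single arrays, are not described here. In the ER, of 21 genes of folding and quality control 7 fell and 1 rose (33.3% and 4.76%), with a median of -0.19. The cumulus and granulosa markers, of which 10 of 22 fell, were lower on the same arrays (summed signal at most 9589 in knockout, at least 11139 in wild type), and their part in this was not tested. Manf, a secreted ER stress protein, fell from 11.92 ± 0.0913 (SD, n = 4) to 11.15 ± 0.24 (n = 4), by 0.77 (limma, adjusted p = 0.00196). Sec63, a J protein of the translocon, fell from 9.87 ± 0.0928 to 9.28 ± 0.212, by 0.59 (adjusted p = 0.00564). Pdia6, Edem1, Pdia3, Pdia4 and the lectin chaperone Canx also fell, by 1.33, 0.56, 0.44, 0.38 and 0.33, and were named to complete the count after their values were seen. Sil1, the nucleotide exchange factor of BiP, rose from 10.56 ± 0.38 to 11.95 ± 0.211, 2.63-fold (adjusted p = 0.000838). On wild-type array 1 it read 11.12 against 10.32 to 10.43 on the other wild-type arrays.

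Among 10 genes of unfolded protein response signalling, Mbtps1, the protease that first cuts Atf6, fell by 1.10 (limma, adjusted p = 0.000242), and Mbtps2, which cuts it next, rose 1.41-fold (adjusted p = 0.00273). Xbp1, Atf4 and Ddit3 differed by -0.36, 0.51 and 0.46 and missed the threshold (limma, adjusted p = 0.0541, 0.0723 and 0.0828).

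**Figure D5:**
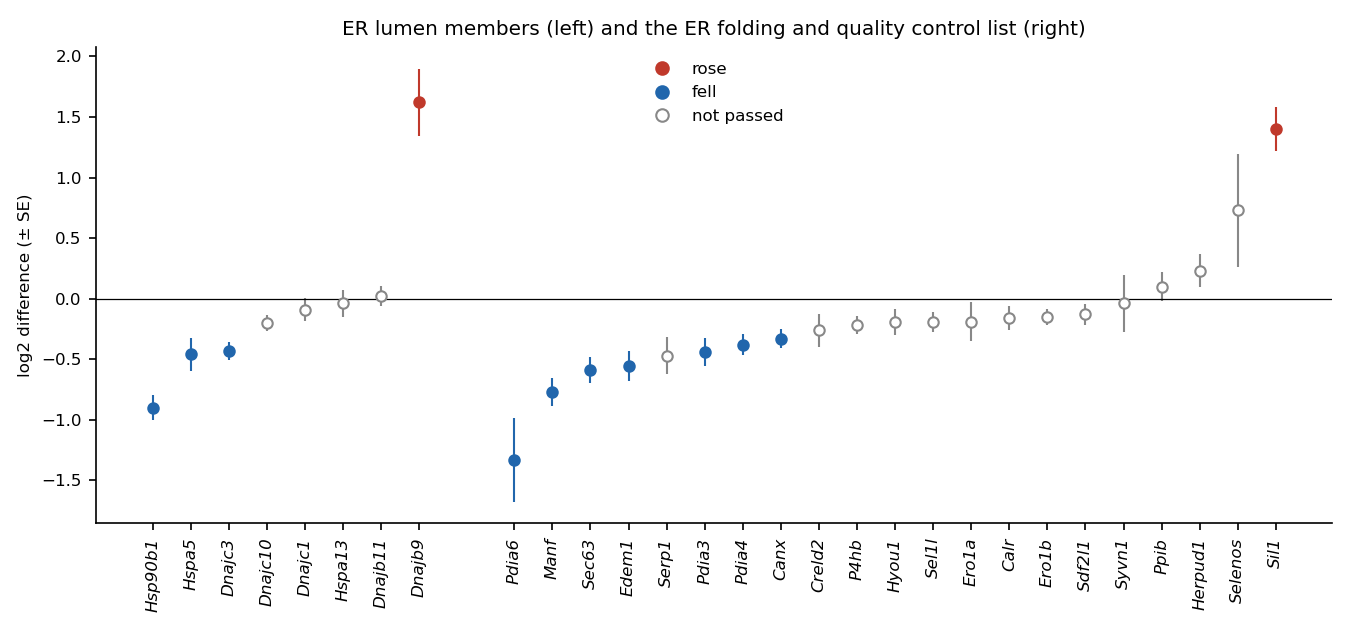
Log2 difference of knockout minus wild type (± SE, n = 4 and 4 arrays) for the 8 ER lumen genes (left) and 21 other genes of ER folding and quality control (right), each sorted. Filled points passed: 3 of 8 and 7 of 21 fell, and Dnajb9 and Sil1 rose.

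In the cytosol, 4 of 22 co-chaperones fell and 0 rose (limma; 18.2% lower, beside 12.8% of all genes lower and 8.18% higher). At an unadjusted p under 0.05, 7 were lower and 1 higher, and 20.1% and 14.7% of all genes were. Sugt1, an Hsp90 partner, fell from 12.20 ± 0.152 (SD, n = 4) to 11.37 ± 0.131 (n = 4), by 0.83 (limma, adjusted p = 0.000497), and Pdcl3, a partner of CCT, by 0.32 (adjusted p = 0.0203). Of the 6 prefoldin subunits, which deliver actin and tubulin to CCT, 3 fell and 1 rose. Vbp1 rose from 12.39 ± 0.156 to 13.35 ± 0.0912, 1.94-fold (adjusted p = 0.000159), while Pfdn1 and Pfdn4 fell by 0.56 (adjusted p = 0.031) and 0.34 (adjusted p = 0.0256). In the heat shock factor list 5 of 6 genes were measured, and Hsf1 was not. Hsbp1, which binds heat shock factor trimers, fell by 0.46 (adjusted p = 0.002). The factors Hsf2, Hsf4 and Hsf5 did not pass, and neither did Hikeshi, which is not a factor itself. Neither of the 2 alpha crystallins passed. Of 8 mitochondrial partners 1 rose (12.5%) and 0 fell (1 and 0 at an unadjusted p under 0.05). It was Trap1, the Hsp90 of mitochondria, which rose from 10.58 ± 0.108 to 11.62 ± 0.159, 2.05-fold (adjusted p = 0.000127).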

How the data were processed

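Each array gave values for 45101 probe sets, of which 64 controls were left out. The authors deposited log2 signals, and the submitters' processing notes name RMA and Partek and state no version. RMA subtracts background and makes the arrays' distributions alike, and it narrows differences among dim probe sets. Amplification favours 3′ ends. Symbols came from the platform annotation given with the series. Here limma 3.58.1 in R 4.3.3 (lmFit, eBayes, knockout minus wild type, no covariates) was fitted to all 45037 probe sets with Benjamini-Hochberg adjustment over all of them, and checked on simulated data. Passing means adjusted p under 0.05, and folds are antilogs of log2 differences. The number of arrays limits the precision, and no detection calls were used. Groups came from the genotype label, with arrays numbered in accession order. The labels give mice as separate samples.

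Members and lists were chosen with earlier results of these data known. Text names every member that passed, every ER lumen and CCT gene, and in each other class the 2 brightest genes and the 2 of lowest p in each direction. In each partner list it names the 2 genes that passed with the lowest p in each direction. A few others were added for comparison after their values were seen. A planned description of protein endings was not made, as no protein sequences were used here. Promoters were matched by gene identifier for 68 members.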

Additional observations from a re-analysis of the deposited data

Results flagged for a closer look

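Among the named genes, 118 sets of 4 values were searched for a single array far from the other 3. Such an array was found in 5 sets, where chance gives about 6. Dnaja3 read 10.56 on wild-type array 1 and 10.33 to 10.34 elsewhere in its group, and Sil1 read 11.12 there where its others were 10.32 to 10.43. On knockout array 2, Hsph1 read 13.09 against 13.37 to 13.42 and Sec63 read 8.96 against 9.38 to 9.39. Hspb11 read 10.95 on knockout array 4 against 10.55 to 10.59.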

How the results depend on the processing

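Of 18 members that passed, 8 kept the call whichever single array was left out (Hsp90b1, Dnajc3, Dnajb9, Hspa1a, Dnajc5b, Dnajc16, Dnajc30 and Dnajc28), and 10 kept it under quantile, median and cyclic loess scaling. Of the 8, Dnajc28 held narrowly (limma, adjusted p up to 0.0499 without single arrays). Dnajc16 lost the call with probe sets averaged per gene (adjusted p = 0.182). Leaving out an array left fewer arrays to test, and 16.3% to 18.4% of all genes then passed in place of 21.0%. Without single arrays 3 to 7 members were higher and 6 to 8 lower, 1 to 4 and 1 to 3 among cytosolic genes, and 2 to 3 lumenal ER genes were lower. Cyclic loess scaling gave 10 members higher and 7 lower, 6 and 2 of them cytosolic. With arrays centred on their medians 1 cytosolic gene was higher. With probe sets averaged per gene 10 members were higher and 8 cytosolic genes lower, Dnajc2 read -0.14 and Hspa4l 0.55, and without probe sets of shared sequence Dnajc2 read -0.53. With a replicate block taken from the number that opens each title (random, consensus correlation -0.0778), 5 members were higher and 11 lower, and Hspa5 (adjusted p = 0.0515) and Hspb6 (adjusted p = 0.0501) lost the call. The labels do not say what that number marks, so no pairing was assumed. The remaining counts stayed within 1.5 times the values given above. Dim probe sets have no stated background here.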

Other observations

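The 35 genes with an ER stress element in the 250 bases before their start were looked up on the arrays after the matches of Hspa5, Hsp90b1 and Dnajc3 had been seen. Of them, 19 were measured, and 6 fell, the 3 chaperones that prompted the lookup among them, and 0 rose (limma; 1 higher at an unadjusted p under 0.05), with a median log2 difference of -0.16. Outside the 3 chaperones, 3 of 16 fell (18.8%, against 12.8% of all genes), the disulfide isomerase Pdia6 (-1.33), the lectin chaperone Canx (-0.33) and the zinc finger gene Zfp57 (-0.44). Outside the partner lists as well, 1 of 10 fell, which is Zfp57 and a share below that of all genes. Calr, Creld2, Derl3, Ero1b and Syvn1 did not pass, at -0.16, -0.26, -0.24, -0.15 and -0.04. A difference below 0 was read in 13 of the 16 genes and in 7 of those 10. The share of all genes below 0 was not counted, and their median difference was 0.00.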
